A study of Mus musculus with 12 samples.

Results

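Livers of *Rev-erbα*-/- mice were compared with wild-type livers collected at ZT20, 20 h after lights-on and in the dark part of the day. The comparison used the 6 livers of that time, 3 of each genotype, out of 12 in the series, and all genes in the count table were considered. The livers of ZT8 entered the choice of genes tested, the scaling of the libraries and the shared estimate of the spread. Their values are set beside those of ZT20 where this is said. The wild-type group and the group labelled as *Rev-erbα* knockout (Rev KO) were both 12 weeks old, on a mixed 129Ola/C57BL6 background, and were not treated. Male mice from heterozygous breeding pairs were kept in 12 h of light and 12 h of dark with free access to food. The knockout is of the whole body, and the sources used here do not say which exons the allele lacks or whether the 2 genotypes were littermates. Each library held polyadenylated RNA of 1 liver, so that cell types were not separated.

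The *Nr1d1* product REV-ERBα belongs to the nuclear receptors and represses transcription through response elements it shares with the activating ROR receptors. In liver its level swings with the day under the control of the circadian clock, and it is known for repressing *Arntl* (BMAL1) and for setting the timing of lipid, bile acid and glucose metabolism. Its transcript is abundant in the light phase and low in the night. The ZT20 comparison therefore asks which genes differ between the genotypes when REV-ERBα is normally low.

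*Nr1d1* itself was low in both groups at ZT20. Wild-type livers held 2.28, 1.86 and 2.15 CPM (the read counts of a gene scaled to the size of its library), and *Rev-erbα*-/- livers held 3.57, 2.96 and 2.09 CPM. The groups overlapped and the difference was not called, with a log2 fold change (knockout minus wild type, as throughout) of 0.46 ± 0.292 (SE; edgeR quasi-likelihood test, adjusted p = 0.538). Counts over the whole gene thus did not check the ZT20 genotypes, which rest on the labels. *Nr1d1* also overlaps *Thra* on the opposite strand, and reads were counted without strand.

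The 6 libraries held 22224962 to 26060192 gene counts each, and 3 counts, taken as the floor of detection, came to 0.115 to 0.135 CPM. The summed hepatocyte markers were at 100416 to 111289 CPM in wild type and at 90976 to 98583 CPM in *Rev-erbα*-/- livers, with 0 of 6 called. No tested marker was called by the edgeR fit in any of the 12 marker lists (*Marco*, a Kupffer cell marker, was called by DESeq2), which included Kupffer, endothelial, stellate, bile duct, lymphoid, erythroid and pancreatic cells. The 7 T and NK cell markers, none of which passed the filter on low counts, summed to 1.42 to 2.06 CPM in wild type and 0.779 to 0.934 CPM in the knockout, and the 6 neutrophil markers to 1.72 to 7.83 and 0.546 to 1.16 CPM. Their part in the results below was not tested, and fewer cells of a type cannot be told apart from less RNA per cell.

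Some genes that differed at ZT20 have copies elsewhere in the genome, and reads that match several places are lost or placed by single bases. Windows of 75 bases, the longest read, are given here to show how little separates such copies. They are taken 5′ to 3′ from the annotation's transcripts on GRCm38, and capitals mark the positions at which the copies in a set differ. The ribosomal protein gene *Rps13* lies on chromosome 7 (116331505 to 116334195, minus strand), *Rps13-ps1* on chromosome 8 (87047689 to 87048226, plus strand) and *Rps13-ps2* on chromosome 7 (88530446 to 88530898, minus strand). Over the 453 coding bases, *Rps13-ps2* was identical to *Rps13* and *Rps13-ps1* differed at 2 bases.
Rps13: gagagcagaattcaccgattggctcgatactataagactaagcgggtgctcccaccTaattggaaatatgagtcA
Rps13-ps1: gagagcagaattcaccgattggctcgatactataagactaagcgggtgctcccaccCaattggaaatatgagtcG
Rps13-ps2: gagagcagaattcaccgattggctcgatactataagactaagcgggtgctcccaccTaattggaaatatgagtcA

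*Rps3a1* encodes a protein of the small ribosomal subunit and lies on chromosome 3 (86137940 to 86142702, minus strand). Its copies *Rps3a2* (chromosome 14, 88123017 to 88123808, minus strand) and *Rps3a3* (chromosome 13, 108670603 to 108671397, plus strand) matched it at 788 and 783 of 792 bases.
Rps3a1: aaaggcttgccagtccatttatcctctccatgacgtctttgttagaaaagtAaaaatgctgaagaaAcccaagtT
Rps3a2: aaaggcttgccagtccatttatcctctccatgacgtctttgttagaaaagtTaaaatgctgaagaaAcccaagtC
Rps3a3: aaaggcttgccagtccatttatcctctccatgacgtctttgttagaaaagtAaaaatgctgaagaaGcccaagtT

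*Ahcy*, the enzyme that breaks down S-adenosylhomocysteine, lies on chromosome 2 (155059310 to 155074497, minus strand). Its copy *Gm9826* (chromosome 1, 7177739 to 7179037, plus strand) matched it at 1285 of 1296 bases.
Ahcy: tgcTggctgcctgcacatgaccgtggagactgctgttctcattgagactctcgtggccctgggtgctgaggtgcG
Gm9826: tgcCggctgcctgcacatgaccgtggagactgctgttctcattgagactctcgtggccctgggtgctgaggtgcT

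Of 14488 genes tested, 526 (3.63%) passed an adjusted p of 0.05 at ZT20. Those higher in *Rev-erbα*-/- livers were 2.09% of all genes tested and those lower 1.54%. Single-copy protein-coding genes made up 409 of these, 238 higher and 171 lower, which was 3.40% of the 12017 tested. Members of multi-copy families, to which genes with a near-identical copy were added, were called in 45 of 584 cases (7.71%). Pseudogenes and predicted genes were called in 49 of 1438 cases (3.41%), and other genes, mainly non-coding, in 23 of 449 (5.12%). The called genes of the single-copy class changed less. Their median fold change was 1.594 either way and 60.9% of them reached 1.5-fold (2.44% of all genes tested were called and reached it), against 2.978 and 84.4% for the multi-copy families and 2.816 and 89.8% for pseudogenes and predicted genes. The plot of log2 fold changes by class shows this difference in spread. The number called rested on single livers. It was 239 without the second wild-type liver of ZT20, 262 without the second knockout liver and 322 without the first wild-type liver, in place of 526. Without adjustment 14.6% of all genes had a p under 0.05.

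**Figure D1:**
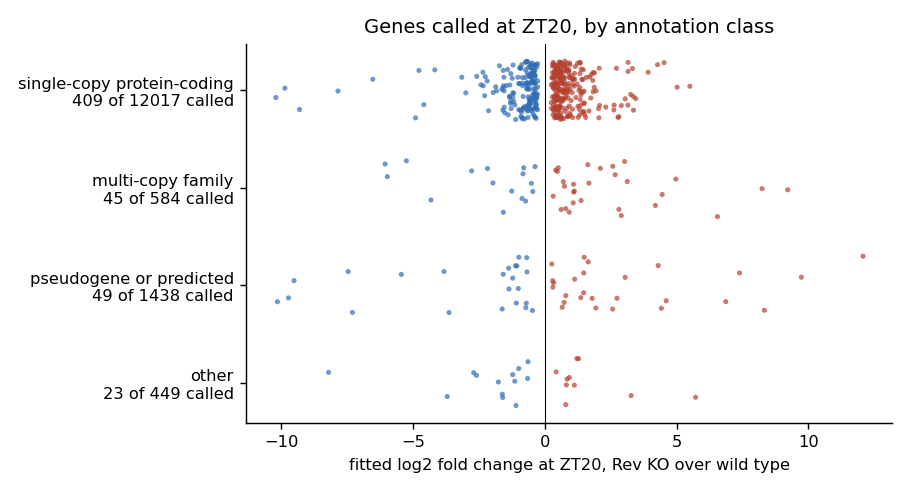
The log2 fold change (knockout minus wild type) at ZT20 of each gene that passed an adjusted p of 0.05, by gene class, with 1 point per gene. The single-copy protein-coding class (409 genes) has most of its points near the threshold of 1.5-fold, while multi-copy families (45) and pseudogenes or predicted genes (49) hold a larger share of points far from 0.

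Which group stood apart was also counted. In 307 of the 526 called genes (58.4%) the 3 wild-type ZT20 livers all lay above or all below the other 9 livers of the series, and in 133 (25.3%) the 3 *Rev-erbα*-/- ZT20 livers did so. Over all genes tested these shares were 7.16% and 4.71%. The called genes were chosen by a difference between the 2 ZT20 groups, so higher shares among them were partly fixed in advance. For 18 genes both groups stood apart and for 104 neither did. Among all tested genes the values of the 2 genotypes did not overlap in 22.5%, and among the called genes in 525 of 526. The genotype, the time and anything else that set the 3 wild-type ZT20 livers apart from the other 9 cannot be told apart for the genes of the first kind.

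The copies of *Rps13* stood at opposite ends in the 2 genotypes. *Rps13-ps1* was at 22.7, 23.1 and 21.1 CPM in wild type and at 0.042, 0 and 0 CPM in *Rev-erbα*-/- livers. *Rps13-ps2* had 0 counts in each wild-type liver and 24.6, 26.9 and 23 CPM in the knockout, at least 184-fold higher on a floor of 3 counts per library. The source gene *Rps13* stayed near 1 CPM or below in all 6 livers and was not called (log2 fold change 0.08 ± 0.506, adjusted p = 0.971). The 2 pseudogenes, which differ at 2 of 453 bases, were thus each counted almost entirely in 1 genotype. At ZT8 the order was the other way round: *Rps13-ps1* was at 9.55, 2.49 and 0 CPM in wild type and 20, 17.1 and 19.3 CPM in the knockout, and *Rps13-ps2* was at 11.1, 18.8 and 23.3 CPM in wild type and 0.049 CPM or less in the knockout. The wild-type livers of ZT8 differed among themselves in which copy took the counts. The tally set aside as not unique, per counted read, also varied between libraries. For the wild-type livers of ZT8 this ratio stood at 1.76, 2.89 and 3.28, and for the knockout livers of ZT8 at 2.32, 2.29 and 2.72. Among the ZT20 libraries it ran 1.56, 1.32 and 1.24 for the knockout, against 1.67, 1.67 and 1.56 for wild type. Whether the ratio bears on which copy was counted was not tested.

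A like pattern held for the *Rps3a* copies. *Rps3a1* was at 1.02, 0.84 and 0.939 CPM in wild type and at 28.1, 30 and 30.2 CPM in the knockout (31.4-fold higher, adjusted p = 7.53e-12). *Rps3a2* had 0 counts in wild type and 5.08, 4.21 and 5.42 CPM in the knockout, at least 36.3-fold higher. *Rps3a3* went from 81.4, 89.7 and 85.6 CPM to 43.3, 42.2 and 42.2 CPM (2.01-fold lower, adjusted p = 1.73e-07). The first 2 copies rose and *Rps3a3* fell, and in each of them the wild-type ZT20 livers lay outside the range of the other 9. At ZT8 *Rps3a2* was at 4.26, 4.78 and 4.07 CPM in wild type, so that the livers with 0 counts were the wild-type livers of ZT20 alone.

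*Ahcy* fell from 193, 179 and 181 CPM to 36.2, 39.2 and 46.9 CPM, 4.52-fold lower (adjusted p = 1.81e-09). *Gm9826* fell with it, from 32.4, 30.7 and 26.7 CPM to 0.714, 0.74 and 0.578 CPM (43.6-fold lower, adjusted p = 8.71e-10). The gene and its copy moved the same way here, unlike the ribosomal sets, and the wild-type ZT20 livers again stood outside the other 9. *Rpl34*, a ribosomal protein gene with many copies, was at 2, 1.55 and 1.83 CPM in wild type and 32.1, 33.8 and 32.9 CPM in the knockout (18.3-fold higher, adjusted p = 0.00805). *Acp1*, a tyrosine phosphatase counted as single-copy although 32.8% of its transcript matched another gene, was 7.01-fold higher (3.86, 3.94 and 3.62 CPM against 25.5, 26.5 and 28.2 CPM). *Zfp125*, which overlaps *3110053B16Rik* on the same strand, had 0 counts in wild type and 1.59 to 1.99 CPM in the knockout. Of the 82 cytosolic ribosomal protein genes, 76 were tested and 3 were called, all higher (*Rps15a*, *Rpl34* and *Rpl13a*), with a median log2 fold change of -0.044 beside -0.0007 over all genes. None of the 76 is in the single-copy class.

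**Figure D2:**
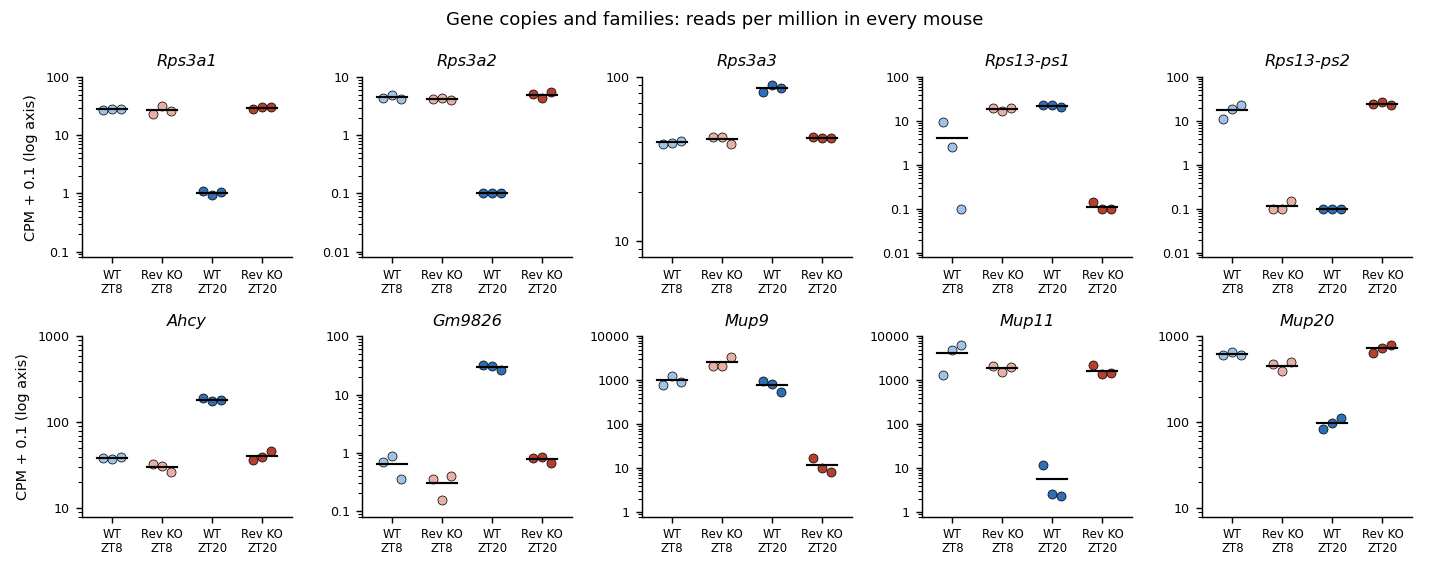
CPM + 0.1 on a log axis in each of the 12 livers for 10 genes with copies or from multi-copy families, by genotype (WT, wild type) and time, with 1 point per mouse and a line at the mean of 3. At ZT20 *Rps13-ps1*, *Ahcy*, *Gm9826*, *Rps3a3* and *Mup9* are lower and *Rps13-ps2*, *Rps3a1*, *Rps3a2*, *Mup11* and *Mup20* higher in the knockout, with no overlap between the genotypes in any panel.

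The major urinary proteins (MUPs) are pheromone-binding proteins that the male liver secretes under growth hormone, and their genes form a cluster of close copies on chromosome 4. Of 19 tested, 7 rose and 3 fell (52.6%, beside 3.63% of all genes), the highest share of the 36 gene lists. Their summed level was 6944, 7040 and 6653 CPM in wild type and 16264, 11892 and 11824 CPM in *Rev-erbα*-/- livers, with the sum resting mostly on *Mup3*, *Mup7* and *Mup11*. Over the 19 genes 10 log2 fold changes were above 0 and 9 below, with a median of 0.091. *Mup20*, which encodes the male pheromone darcin, rose 7.48-fold from 83.1, 97.1 and 111 CPM to 641, 730 and 803 CPM (adjusted p = 1.25e-09). At ZT8 it was at 616, 665 and 604 CPM in wild type, so that the wild-type ZT20 livers were the low ones. *Mup11* went from 11.9, 2.52 and 2.28 CPM to 2221, 1375 and 1445 CPM, and *Mup7* from 378, 350 and 269 CPM to 4000, 2515 and 2201 CPM. *Mup9* went the other way, from 956, 849 and 544 CPM to 16.8, 10.3 and 7.96 CPM (66.9-fold lower, adjusted p = 3.99e-05). The most abundant member, *Mup3*, rose only 1.42-fold, from 4862, 5098 and 5148 CPM to 8134, 6577 and 6804 CPM (adjusted p = 0.0464), and it lost the call when any 1 of 8 livers was left out. At 97% identity, 95.3% or more of the transcript of *Mup7*, *Mup9* and *Mup11* was covered by another MUP gene and none of that of *Mup20* and *Mup3*, so the values of the first 3 are uncertain.

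The genes were also read by function, in lists that hold members of multi-copy families as well as single-copy genes. Of the 36 lists, 9 had no called gene: RORE-driven genes, cholesterol synthesis, glucose metabolism, iron handling, heat shock, nucleolar genes, hepatocyte identity factors, pericentral markers and oxidative phosphorylation subunits. The plot of called members by list gives the counts for all of them.

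**Figure D3:**
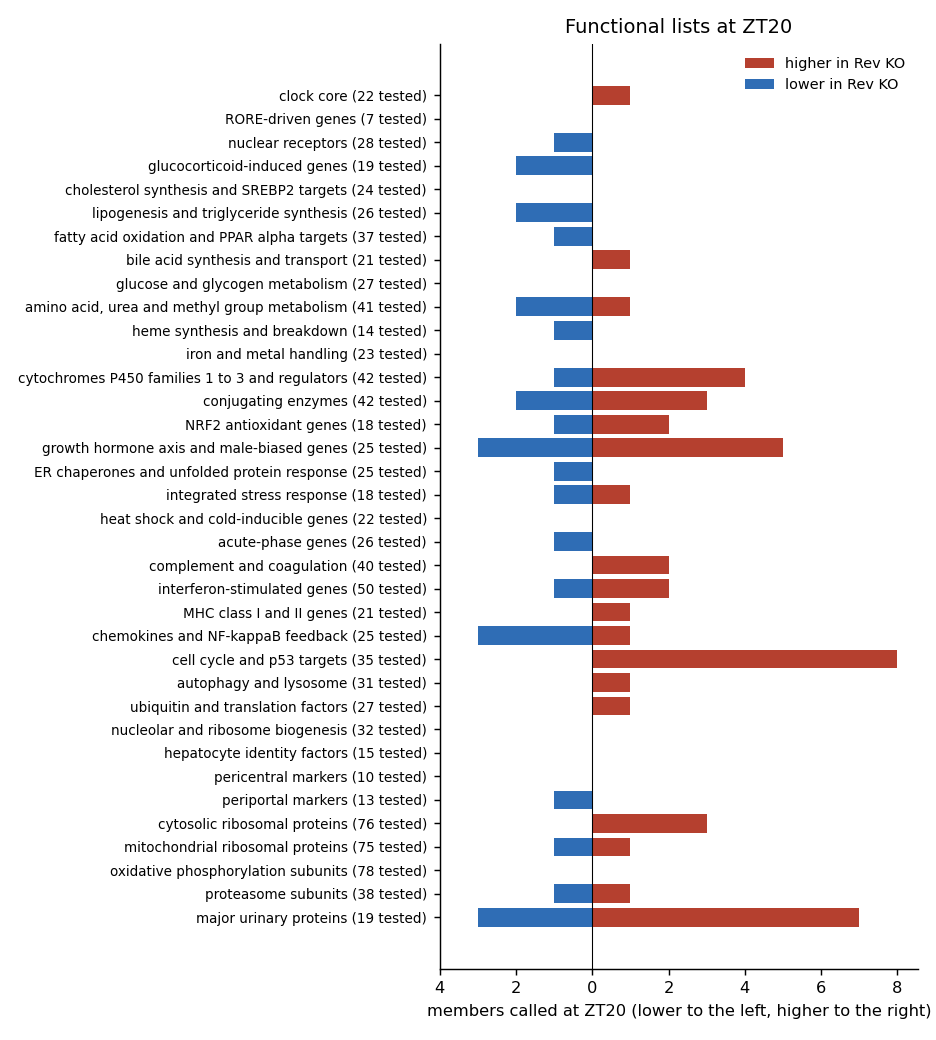
The number of members called higher and called lower (adjusted p under 0.05) in *Rev-erbα*-/- livers at ZT20, for each of 36 gene lists. Major urinary proteins (7 higher, 3 lower), cell cycle genes (8 higher, 0 lower) and the growth hormone list (5 higher, 3 lower) have the most called members.

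Few clock genes were called at this time. Of 22 tested 1 was called (4.55%, beside 3.63% of all genes), and 15 had a log2 fold change below 0. Their summed level was 1275, 1280 and 1262 CPM in wild type and 1137, 1164 and 1138 CPM in the knockout. Of 7 genes driven through the REV-ERB and ROR response element (RORE) none was called, with log2 fold changes from -0.343 to 0.106 and 6 below 0. These 7 summed to 846, 852 and 850 CPM in wild type and 796, 770 and 694 CPM in the knockout. At ZT8 all 7 were called, with 8.45% of all genes called. *Arntl*, the core activator repressed by REV-ERBα, was at 44.5, 45.2 and 43 CPM in wild type and at 45.1, 44.8 and 41.1 CPM in the knockout (log2 fold change -0.02 ± 0.0838, adjusted p = 0.956). The called clock gene was *Nr1d2*, which encodes the paralog REV-ERBβ. It was at 11.6, 11.5 and 14.2 CPM in wild type and at 35.2, 21.7 and 17.7 CPM in the knockout, 2-fold higher without overlap (adjusted p = 0.0452). That call stood in 2 of the 12 fits that left out 1 liver.

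Among 28 nuclear receptors tested, 1 was called, *Thrb*, the main thyroid hormone receptor of liver. It fell 1.31-fold, from 83.6, 85.4 and 89 CPM to 71.1, 65.3 and 60.9 CPM (adjusted p = 0.0156), and was called in 8 of the 12 fits that left out 1 liver. *Nr3c1*, the glucocorticoid receptor, was at 126, 124 and 127 CPM in wild type and 116, 112 and 113 CPM in the knockout and was not called. Of 19 genes that glucocorticoids induce, 2 were called and both fell: *Tsc22d3* (GILZ), from 197, 229 and 253 CPM to 162, 173 and 174 CPM (adjusted p = 0.0457), and *Nfkbia*. Of the 12 fits that left out 1 liver, *Tsc22d3* was called in 5 and *Nfkbia* in 3, and the list held from 0 to 2 called genes. *Per1*, another of them, was at 24, 29.2 and 46.3 CPM against 15.7, 22.3 and 29.2 CPM, with overlapping groups.

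Lipid and energy genes changed in small numbers. Of 26 tested genes of lipogenesis 2 fell. *Mlxipl*, which encodes the glucose-sensing factor ChREBP, went from 515, 514 and 532 CPM to 368, 405 and 387 CPM (1.35-fold lower, adjusted p = 0.00546), and *Elovl5*, a fatty acid elongase, was 1.54-fold lower. Of the 12 fits that left out 1 liver, *Mlxipl* was called in all and *Elovl5* in 7. *Adipor2*, the adiponectin receptor of liver, fell 1.5-fold, from 831, 825 and 927 CPM to 532, 580 and 615 CPM (adjusted p = 0.0013). In each of these 3 genes the wild-type ZT20 livers lay above all other 9 livers. *Gpd1*, the cytosolic glycerol-3-phosphate dehydrogenase, rose 1.59-fold, from 270, 239 and 226 CPM to 379, 387 and 402 CPM (adjusted p = 0.000713). Of 37 genes of fatty acid oxidation 1 was called, the hormone gene *Fgf21*. It was low throughout, at 2.37, 1.64 and 1.16 CPM in wild type and 0.21, 0.623 and 0.267 CPM in the knockout (4.56-fold lower, adjusted p = 0.00334).

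Bile acid genes gave 1 call among 21 tested. *Cyp7b1*, the oxysterol 7α-hydroxylase of the alternative bile acid pathway and a male-biased gene, rose 1.68-fold, from 482, 444 and 440 CPM to 879, 678 and 735 CPM (adjusted p = 0.00275). *Cyp7a1*, the rate-limiting enzyme of the classical pathway, was at 163, 143 and 113 CPM against 70.3, 143 and 240 CPM and did not separate the groups. *Slc10a2*, the apical bile acid transporter, fell 5.1-fold, from 72.8, 66.3 and 47.8 CPM to 12.1, 13.2 and 11.3 CPM (adjusted p = 0.000728), with the 3 wild-type ZT20 livers above all others. It is not on the bile acid list and was singled out after its values were seen.

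Amino acid genes included 3 called of 41. *Asns*, asparagine synthetase and a target of the integrated stress response, was at 1.02, 1.42 and 2.55 CPM in wild type and 20.6, 17.1 and 14 CPM in the knockout, 10.3-fold higher (adjusted p = 0.00504). The wild-type ZT20 livers lay below all other 9, with 18.4, 44.8 and 46.3 CPM in wild type at ZT8. *Got1*, the cytosolic aspartate aminotransferase, was 1.59-fold lower but was called in only 4 of the 12 fits that left out 1 liver. *Ahcy* was described among the copies. *Asns* was the only one of 18 stress response genes that rose, and *Fgf21*, on the same list, fell. *Alad*, an enzyme of heme synthesis that sits beside the MUP cluster, fell 2.16-fold, from 280, 243 and 256 CPM to 116, 117 and 129 CPM (adjusted p = 0.0131).

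Genes that handle foreign compounds changed in both directions. Of 42 cytochromes P450 and their regulators 4 rose and 1 fell, and of 42 conjugating enzymes 3 rose and 2 fell. That was 11.9% of each list, beside 3.63% of all genes. The P450 count was 2 without the second wild-type or second knockout liver of ZT20, 3 without the first or the third wild-type liver, and 8 without the third knockout liver. That of the conjugating enzymes was 10 without the first and 9 without the third wild-type liver of ZT8, and 3 without the second wild-type or first knockout liver of ZT20. Single-copy genes made up 2 of the 5 P450 calls and 0 of the 5 calls among conjugating enzymes. *Cyp2a4*, a steroid hydroxylase higher in females, went from 109, 71.7 and 28.5 CPM to 2.27, 0.506 and 0.534 CPM (63.1-fold lower, adjusted p = 0.00151). Its close copy *Cyp2a5*, the coumarin hydroxylase, rose 1.54-fold, from 426, 389 and 481 CPM to 585, 660 and 748 CPM, so that the pair moved in opposite directions. The *Cyp2a5* call stood in 8 of the 12 fits that left out 1 liver. Of the *Cyp2a5* transcript 86.4% matched *Cyp2a4* closely, and the values of the pair are uncertain. The single-copy gene *Ahr*, the receptor for dioxins, was 1.29-fold higher (43.2, 42.2 and 43.6 CPM against 57.6, 58.6 and 50.1 CPM, adjusted p = 0.0382). It was called in 5 of the 12 fits that left out 1 liver. *Fmo1*, a flavin monooxygenase, was 1.5-fold lower (adjusted p = 0.00394). Of 18 NRF2 genes 2 rose (*Txnrd1* and *Ephx1*) and 1 fell (*G6pdx*), and the count was 1 without any of the 6 livers of ZT20 or the second liver of either genotype at ZT8.

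The growth hormone axis, which sets the sex bias of liver genes, had 8 called of 25 (32.0%, beside 3.63% of all genes), 5 higher and 3 lower. Over the 25 genes 13 log2 fold changes were above 0 and 12 below, with a median of 0.049, and 1 of the 8 called lay outside the windows with 4 or more called genes described below. *Serpina12* (vaspin), a male-biased serpin, rose 4.97-fold, from 13.8, 12.5 and 9.08 CPM to 69.4, 58.2 and 48.2 CPM (adjusted p = 0.000676). *Stat5b*, the factor that carries the growth hormone signal, fell 1.25-fold, from 76.6, 82.9 and 89 CPM to 68.6, 68.1 and 62.1 CPM (adjusted p = 0.0249). The call of *Stat5b* stood in 8 of the 12 fits that left out 1 liver. *Stat5a*, its neighbour and close paralog, was 1.4-fold lower. Among the called members the male-biased *Mup20*, *Mup3*, *Cyp7b1*, *Serpina12* and *C4a* rose. The female-biased *Cyp2a4*, whose values are uncertain as given above, fell. Of the 19 MUP genes tested 7 rose and 3 fell, and the 3 that fell (*Mup9*, *Mup10* and *Mup5*) are not on this list. Of the 8 called genes, 4 are single-copy, 2 higher and 2 lower, and the count was 4 without the second wild-type, the third wild-type or the second knockout liver of ZT20, and 5 without the first wild-type or the third knockout liver.

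Several genes of DNA replication were higher in the knockout. In the cell cycle and p53 list the median log2 fold change was 0.44, with 28 of 35 above 0. Of the 35 genes tested 8 rose and none fell (22.9%, beside 3.63% of all genes called). They were the replicative helicase subunits *Mcm2*, *Mcm3*, *Mcm4*, *Mcm6* and *Mcm7*, *Rrm2*, a subunit of ribonucleotide reductase, the transcription factor *E2f1*, and *Mki67*. *Mcm6* was at 0.977, 0.929 and 1.92 CPM in wild type and at 17.2, 10.2 and 6.98 CPM in the knockout (8.94-fold higher, adjusted p = 0.00213). The wild-type livers of ZT8 held 8.79, 6.63 and 6.05 CPM of it, so that the wild-type ZT20 livers were again below the other 9. *Rrm2* went from 2.47, 1.72 and 1.74 CPM to 6.25, 7.4 and 6.22 CPM (3.35-fold higher, adjusted p = 0.00321), and *Mki67*, a marker of proliferating cells, from 1.54, 1.68 and 2.55 CPM to 5.67, 4.87 and 3.11 CPM. The first knockout liver was the highest and the third the lowest in *Mcm6*, *Mcm3*, *Mcm2* and *Mki67*. Outside the list and named after their values were seen, *Chaf1a*, a histone chaperone of replication, was 3.56-fold higher, while *Mcm5* was at 1.49, 1.06 and 2.24 CPM against 11.9, 4.91 and 2.89 CPM and was not called. The mitotic kinase *Cdk1* was at 1.02, 1.37 and 1.48 CPM against 2.35, 1.44 and 0.711 CPM. The count of called members was 2 without the first wild-type, the second wild-type or the first knockout liver of ZT20, 3 without the second knockout liver, and 4 without the third wild-type liver of ZT20, the second wild-type liver of ZT8 or the second knockout liver of ZT8. *Mcm6* and *Rrm2* were called in each of the 12 fits that left out 1 liver, *Mcm2* in 8, *E2f1* and *Mcm3* in 5 each and *Mki67* in 4.

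**Figure D4:**
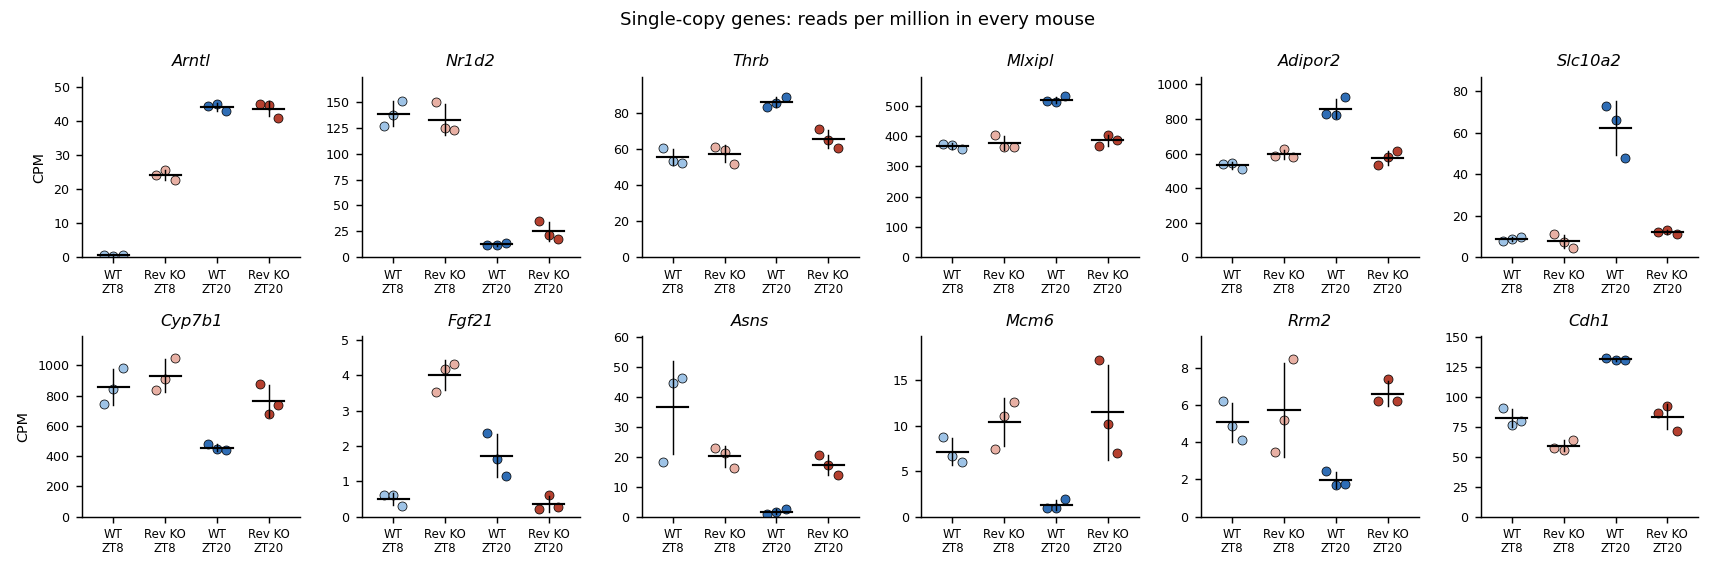
CPM in each liver for 12 genes named in the text, by genotype and time as labelled under each panel, with 1 point per mouse, a line at the mean of 3 and a bar of 1 SD. At ZT20 *Arntl* overlaps between the genotypes. *Mlxipl*, *Adipor2*, *Thrb*, *Slc10a2*, *Fgf21* and *Cdh1* are lower and *Nr1d2*, *Cyp7b1*, *Asns*, *Mcm6* and *Rrm2* higher in every knockout liver.

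Interferon-stimulated genes split the knockout livers. Of 50 tested, 2 rose (*Psmb9* and *Ifi27l2a*) and 1 fell (*Cxcl9*), although the median log2 fold change was 0.411 and 42 of 50 lay above 0. Their summed level was 1301, 1250 and 1278 CPM in wild type and 2028, 1520 and 1102 CPM in the knockout. In the first knockout liver 44 of the 50 were above every wild-type liver and in the second 38, but in the third 6 were above and 28 below. The like share over all genes tested is not given, so these counts only set the knockout livers beside each other. The antiviral genes *Isg15* (6.93, 5.22 and 5.14 CPM against 17.8, 11.7 and 4.22 CPM) and *Usp18* (8.05, 5.97 and 5.68 CPM against 23.7, 12 and 4.53 CPM) show this, with adjusted p of 0.32 and 0.367 in edgeR. These and the other genes in the plot of interferon genes were chosen after their values were seen. Without the third knockout liver 25 of the list were called, 24 of them higher, so that 1 liver decided the count, and 1 was called without the first wild-type or the first knockout liver.

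**Figure D5:**
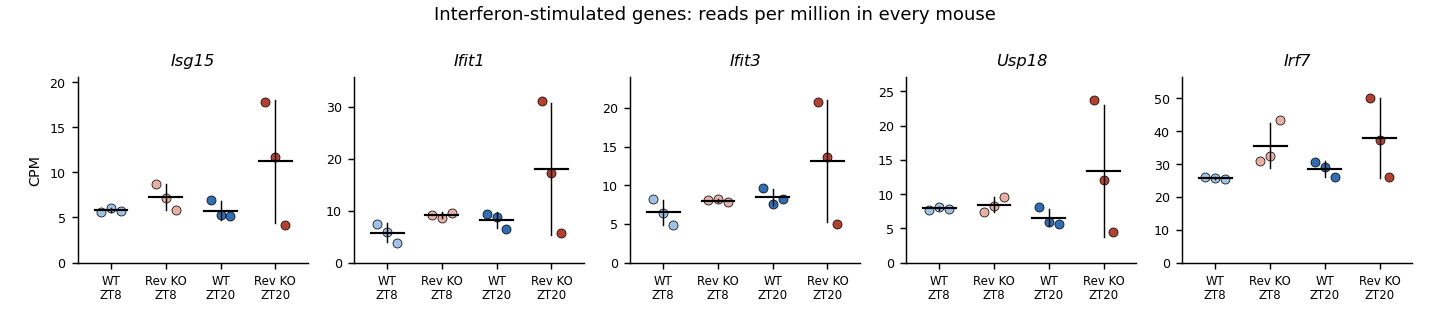
CPM in each of the 12 livers for 5 interferon-stimulated genes, by genotype and time, with 1 point per mouse, a line at the mean of 3 and a bar of 1 SD. The first and second knockout livers of ZT20 lie above all wild-type livers in each panel, and the third lies among or below them, as in *Isg15* (17.8, 11.7 and 4.22 CPM).

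The other immune lists had 1 to 4 called members each. Of 25 genes of chemokines and NF-κB feedback (16.0% called, beside 3.63% of all genes) 1 rose (*Ccl25*) and 3 fell (*Cxcl9*, *Ccl27a* and *Nfkbia*). That count was 1 without the second or the third wild-type or the second knockout liver of ZT20 or the second wild-type liver of ZT8, and 2 without the first wild-type or first knockout liver of ZT20 or the second knockout liver of ZT8. *Psmb9*, a subunit of the immunoproteasome that overlaps *Tap1* on the opposite strand, rose 1.46-fold, from 8.28, 10 and 9.66 CPM to 15.8, 13 and 12 CPM (adjusted p = 0.0131). *Cxcl9*, a chemokine for T cells, fell 1.82-fold, from 9.3, 7.25 and 6.44 CPM to 4.41, 4.83 and 3.38 CPM (adjusted p = 0.00842). The summed T and NK cell markers given above were lower in the knockout too. None of these markers passed the filter on low counts, and a link with *Cxcl9* was not tested. Acute-phase genes had 1 called of 26 (*Saa4*, lower) and complement and coagulation genes 2 of 40 (*Mbl2* and *C4a*, both higher). The scavenger receptor *Marco* was at 0.279, 0.796 and 1.07 CPM against 3.9, 7.13 and 7.16 CPM with an adjusted p of 0.0515, and it was called under 7 alternatives, DESeq2 on all 12 samples among them. The other tested Kupffer markers were not called.

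Few genes of protein and energy supply were called. None of 78 oxidative phosphorylation subunits was called, and 68 of them had a log2 fold change below 0, with a median of -0.096. In the 3 knockout livers 42, 50 and 31 of them were below every wild-type liver. The like share over all genes tested is not given, here or for the chaperones below, so no excess is read from such counts. Of 25 chaperones of the endoplasmic reticulum 1 was called, *Herpud1*, which acts in the disposal of misfolded proteins. It was 1.48-fold lower and was called in 4 of the 12 fits that left out 1 liver. The summed level of the 25 genes was 9069, 8863 and 8945 CPM in wild type and 10477, 8430 and 6538 CPM in the knockout. The knockout livers thus lay in the same order as for the interferon genes, and in the third 21 of 25 were below every wild-type liver. *Cdh1*, E-cadherin and a periportal marker, fell 1.57-fold, from 133, 131 and 131 CPM to 87, 92.5 and 71.6 CPM (adjusted p = 0.000779), while the other 12 periportal markers and all 10 pericentral ones were not called.

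The single-copy genes with the largest negative log2 fold changes included several close to or at 0 in the knockout. *Ctse*, an aspartic protease (cathepsin E), was at 44.2, 40 and 35.1 CPM in wild type and 0.126, 0.312 and 0.0445 CPM in the knockout, 231-fold lower (adjusted p = 7.5e-11). *Ren1*, renin, was at 12.3, 11.9 and 13.3 CPM in wild type and had at most 1 count in any knockout liver. Both genes lie in the same 5 Mb of chromosome 1. *Tmc5* (7.54, 7.21 and 5.73 CPM) and *Cebpe* (4.14, 4.69 and 7.25 CPM), a factor of granulocyte development, had 0 counts in the knockout, at least 51.3-fold and 40.3-fold lower. *Cebpe* was called in 3 of the 12 fits that left out 1 liver, *Tmc5* in all of them. *Wdr72* was at 6.14, 5.17 and 5.64 CPM in wild type and at 0.042, 0.117 and 0 CPM in the knockout, and its log2 fold change at ZT8 was -6.88.

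In the other direction *Mme*, the membrane protease neprilysin, was at 1.02, 0.663 and 0.939 CPM in wild type and at 9.02, 28.3 and 48.4 CPM in the knockout (32.5-fold higher, adjusted p = 0.015). It was called in 9 of the 12 fits that left out 1 liver, but not by edgeR on the 6 ZT20 samples alone. *Ank2*, a membrane adaptor, went from 0.233, 0.0442 and 0.224 CPM to 4.78, 4.05 and 2.98 CPM (23-fold higher, adjusted p = 9.74e-06). *Serpine2*, a serine protease inhibitor, rose 10.3-fold and *Loxl4*, a lysyl oxidase, 8.29-fold. In all 8 genes were at or under 3 counts in each wild-type liver and at 1 CPM or more in the knockout, and 11 were so the other way round, but only 2 and 4 of these were single-copy. Among abundant genes, *Ndrg2*, a cytoplasmic protein of the stress-responsive NDRG family, fell 1.54-fold, from 1327, 1305 and 1297 CPM to 802, 826 and 918 CPM (adjusted p = 0.00276). *Actb*, β-actin, rose 1.45-fold, from 396, 390 and 360 CPM to 601, 577 and 485 CPM (adjusted p = 0.00269).

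The called genes were also counted along the chromosomes. In 5 Mb windows, 275 of 532 held none and 35 held 4 or more. Those 35 took 192 of the 520 called genes with a position (36.9%), at 11.0% of the genes tested there, against 2.6% in the rest. The 35 were picked by their number of calls, so their higher share was fixed in advance. Whether the called genes cluster was not tested. The window with the most was chromosome 14 from 50 to 55 Mb, with 16 of 52 called, among them *Ndrg2*, *Psmb5*, *Cebpe* and *Ear11*. It was followed by the MUP cluster with 14 of 54. Chromosome 12 from 20 to 25 Mb, where *Rrm2* and *Zfp125* lie, had 8 of 16, and the window of chromosome 1 that holds *Ctse* and *Ren1* had 8 of 58. Over the autosomes and X the share ran from 1.33% on chromosome 16 to 9.66% on chromosome 14. Around *Nr1d1* on chromosome 11 no gene of 36 within 1 Mb was called and 4 of 193 within 5 Mb (2.07%), *Stat5a* and *Stat5b* among them, beside 2.11% on the part of the chromosome over 10 Mb away. Strain differences in a mixed background and the loss of REV-ERBα cannot be told apart in these windows.

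The promoters of the single-copy genes were searched for the nuclear receptor core site AGGTCA and for TAGGTCA, a longer form with part of the RORE flank, on both strands of the RefSeq promoter windows around each gene start (GRCm38.p6). Of the called genes, 184 of 238 that rose and 117 of 171 that fell had a window. AGGTCA occurred in 13.2% of windows of genes that rose, 13.8% of those that fell, 12.7% of those of all single-copy genes tested and 16.3% of all promoters. TAGGTCA, which contains the former, occurred in 3 of 234 windows of genes that rose (1.28%), *Mcm2* among them. In genes that fell it occurred in 8 of 159 (5.03%), including *Cxcl9* and *Stat5a*, beside 2.03% of windows of the single-copy genes tested. The RevDR2 element, a pair of AGGTCA sites in tandem with 2 bases between them, was in no window of either set and in 3 of 32851 promoters.

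The ZT8 difference of the same genes was set beside that of ZT20. Of the 409 single-copy genes called at ZT20, 88 were also called at ZT8, 45 in the same direction and 43 in the opposite one. In the test of the difference between the 2 times, which 5.88% of all genes passed, 204 of them passed (49.9%). Since the genes were chosen by their ZT20 values, which enter that test too, nothing is read from this share. *Serpina12* did not pass it (log2 fold change 2.31 at ZT20 and 2.62 at ZT8, adjusted p = 0.669), nor did *Cdh1* (-0.65 and -0.48, adjusted p = 0.531), while *Mlxipl* did (-0.43 and 0.04, adjusted p = 0.0205) as did *Asns* (3.37 and -0.86, adjusted p = 0.00417).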

How the data were processed

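Poly(A) RNA of 12 mouse livers was sequenced. The authors aligned the reads with TopHat to mm10 and deposited raw counts per gene symbol from htseq-count (union mode, minimum quality 10, unique reads, strand ignored); they tested with DESeq2 1.6.3. The 5 summary lines without a gene were left out (reads in no gene were 8.5 to 9.95 per 100, ambiguous reads 3.08 to 3.62). Of the 38926 symbols, 14488 passed filterByExpr and were fitted with edgeR 4.0.16 (TMM, robust quasi-likelihood, 4 group means over 12 samples, 8 residual df) in R 4.3.3, with Benjamini-Hochberg adjusted p under 0.05 called. The fit was tested on simulated data. Nothing in the labels ties replicates to separate litters or days, so p-values measure the spread between these livers. Alternatives were DESeq2 1.42.0, other scalings and filters, the 6 ZT20 samples alone, the replicate number as a block and leaving out each liver.

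Classes came from GENCODE and RefSeq annotation and from symbol patterns, some narrowed after values were seen. A gene was near-identical where at least 50% of its transcript matched another gene at 97% identity over 75 bases. The members and lists were chosen with earlier results of these data known. Named were the genes of the study, the 12 largest single-copy changes each way, the 5 largest in other classes, up to 6 called members per list and the most abundant called genes, plus genes the text marks as chosen later. Same-numbered ZT20 livers did not deviate together (r = 0.0198, 0.0738 and 0.00892), so the numbers pair no samples. No set test was made.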

Additional observations from a re-analysis of the deposited data

Results flagged for a closer look

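For 272 of the 526 genes called at ZT20 (51.7%, beside 5.88% of all genes tested) the genotype effect differed from that at ZT8 in the edgeR interaction test. The ZT20 values that chose these genes also enter the interaction test, so nothing is read from this share. The results below were picked out by that test, and each value is the log2 fold change (knockout minus wild type) at ZT20 minus that at ZT8. The difference was negative for *Arntl* (-5.2), *Cdkn1a* (-4.44), *Ddc* (-2.0), *Insig2* (-1.68) and *Lipc* (-0.64), which the main edgeR fit did not call at ZT20. *Cdkn1a* was called at ZT20 by DESeq2, on all 12 samples and on the 6 ZT20 samples, and with the replicate number as a block. The difference was positive for *Thra* (0.78) and *Adh1* (0.65). The main fit did not call these at ZT20 either, while DESeq2 did on all 12 samples and on the 6 ZT20 samples. *Chka*, choline kinase α, fell at ZT20 and was higher in the knockout at ZT8 (-2.98). Among the genes with large ZT20 effects the difference was -7.09 for *Ctse*, 3.36 for *Mup20*, 5.03 for *Rps3a1* and 3.09 for *Acp1*.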

How the results depend on the processing

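The number of genes called at ZT20 (526) was 439 to 725 over the other scalings, filters and tools, and 223 at an adjusted p of 0.01. At that p, 184 genes reached 1.5-fold, 168 were single-copy, 25 were pseudogenes or predicted genes, and 357 differed between the times. With at least 10 counts in every sample 29 pseudogenes or predicted genes were called. The edgeR fit on the 6 ZT20 samples alone called 614 genes, 447 of them among the 526. Leaving out 1 liver gave 239 to 656 calls, 197 to 414 of at least 1.5-fold, 179 to 514 single-copy, 28 to 61 pseudogenes or predicted genes, and 493 to 1260 genes that differed between the times, each lowest without the second wild-type or second knockout liver of ZT20. The replicate number as a block gave 479 calls, 428 of them shared, and 4 in place of 8 called cell cycle genes. Whether the numbers pair the livers is not given in the labels. Of 105 named genes called, 56 were called in every fit that left out 1 liver and 55 kept their side in every alternative. No named gene turned its direction. The cause of the changes was not tested. With 3 livers a group and a floor of 3 counts per library, genes under about 0.1 CPM were not resolved.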
